A study of Mus musculus with 6 samples.

Results

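The occupancy of 10 immediate early genes was followed along their length by chromatin immunoprecipitation and sequencing (ChIP-seq) of RPB1, the catalytic subunit of RNA polymerase II. The genes were the AP-1 genes Fos, Fosb, Jun and Junb, the zinc finger gene Egr1, the nuclear receptor gene Nr4a1, the CREB family gene Atf3, the phosphatase gene Dusp1, and Ier2 and Btg2. They were chosen by name, with earlier results of these data known. Of these 10 genes, 9 had counts in all region tables, which listed 12718 genes each; Atf3 was not analysed here. The antibody recognised the N-terminal domain of RPB1, so that polymerase was captured whatever the phosphorylation of its tail. The material was adrenal glands of 3 Armc5(-/-) knockout (KO) and 3 wild-type (WT) female mice, all of a mixed 129 sv and CD1 background and 10 to 14 months old. Each library carried its own mouse number and was taken as 1 animal, so n = 3 per genotype throughout. Armc5 encodes an adaptor of a CUL3 ubiquitin ligase that acts on RPB1. Glands went into liquid nitrogen at once after resection. The hour of collection is not stated in the labels. Armc5 itself was not analysed here.

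Immediate early genes are switched on within minutes of a signal and need no new protein for it. Their promoters hold polymerase before the signal arrives, and much of the response is the release of that polymerase into the gene. Growth factor signals reach them through serum response factor and its ETS partners, and hormones that raise cAMP reach them through CREB at cAMP response elements. In the adrenal cortex the pituitary hormone ACTH acts through cAMP, and Nr4a1, Fos and Jun are textbook early targets of it. Their RNA is short-lived.

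The promoters are shown first because cAMP is the main hormonal signal to this tissue. Sequences were taken from RefSeq (GRCm38.p6) as the 250 bases upstream of the start listed in its promoter table, and 7 of the 9 genes had an entry. That start differs from the edge of the annotated gene in 2 of them: 73 bases of the Fosb window, with its core site, and all 250 bases of the Nr4a1 window lie inside the annotated gene. Capitals mark the core site of the cAMP response element, TGACG, on either strand (CGTCA on the other); overlapping core sites on both strands make the full element TGACGTCA. The 6 printed here include genes with several core sites, genes with the full element, and Jun, in which no exact match was found. Sites that differ by a base, such as tgacatca in Jun, were not counted. They lie at chr12:85473640-85473889 (Fos, plus strand), chr7:19310046-19310295 (Fosb, minus strand), chr4:95052223-95052472 (Jun, minus strand), chr15:101266596-101266845 (Nr4a1, plus strand), chr17:26508473-26508722 (Dusp1, minus strand), chr1:134079156-134079405 (Btg2, minus strand), and are written 5′ to 3′ toward the gene.
Fos: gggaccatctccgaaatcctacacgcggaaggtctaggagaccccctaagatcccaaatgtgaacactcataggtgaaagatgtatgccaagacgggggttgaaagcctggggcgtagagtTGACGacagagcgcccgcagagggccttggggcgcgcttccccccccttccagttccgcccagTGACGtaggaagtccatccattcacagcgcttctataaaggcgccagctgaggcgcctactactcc
Fosb: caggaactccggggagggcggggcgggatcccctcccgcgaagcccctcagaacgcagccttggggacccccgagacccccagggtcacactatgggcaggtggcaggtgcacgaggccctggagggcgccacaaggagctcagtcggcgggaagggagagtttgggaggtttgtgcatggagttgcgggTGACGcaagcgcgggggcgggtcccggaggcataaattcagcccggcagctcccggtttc
Jun: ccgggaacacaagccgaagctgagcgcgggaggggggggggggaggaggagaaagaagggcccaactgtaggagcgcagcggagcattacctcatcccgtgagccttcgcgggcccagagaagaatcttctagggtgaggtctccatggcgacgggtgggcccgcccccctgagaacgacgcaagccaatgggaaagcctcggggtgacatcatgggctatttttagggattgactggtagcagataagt
Nr4a1: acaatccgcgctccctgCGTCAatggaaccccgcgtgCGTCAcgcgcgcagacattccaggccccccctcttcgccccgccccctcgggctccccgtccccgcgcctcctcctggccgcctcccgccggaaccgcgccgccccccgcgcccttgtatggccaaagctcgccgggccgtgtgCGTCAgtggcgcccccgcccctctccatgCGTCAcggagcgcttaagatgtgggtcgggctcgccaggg
Dusp1: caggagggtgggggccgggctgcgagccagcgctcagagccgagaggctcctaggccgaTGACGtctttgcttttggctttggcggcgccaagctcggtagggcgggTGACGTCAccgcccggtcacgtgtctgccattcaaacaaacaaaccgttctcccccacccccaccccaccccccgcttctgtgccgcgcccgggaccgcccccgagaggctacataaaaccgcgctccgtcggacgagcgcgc
Btg2: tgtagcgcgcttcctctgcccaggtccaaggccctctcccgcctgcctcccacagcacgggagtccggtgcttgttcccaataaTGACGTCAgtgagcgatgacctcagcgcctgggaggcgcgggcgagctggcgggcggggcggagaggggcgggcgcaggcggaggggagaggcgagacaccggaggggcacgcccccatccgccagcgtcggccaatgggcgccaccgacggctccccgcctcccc

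The core site was found in 6 of the 7 windows (Fos, Fosb, Junb, Nr4a1, Dusp1 and Btg2), against 27.5% of the 9911 windows of genes in the tables. Nr4a1 had 4 core sites, the first 233 and the last 40 bases upstream of its start. The full element was found in Dusp1, 143 bases upstream, and in Btg2, 166 bases upstream, against 2.91% of all windows. The binding site of EGR proteins, GCGGGGGCG on either strand, was found in Fosb and Nr4a1, against 5.13% of all windows. The CArG box, the site of serum response factor, was searched as CC, 6 bases of A or T, and GG. It was found in 0 of the 7 windows and in 1.07% of all windows. Bases further upstream were not searched, so genes without a match here may hold the site there. TATAA on either strand was found in Fos, 33 bases upstream, and in 11.3% of all windows. A match is a stretch of letters in this window only, and no binding was measured.

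The genes are short. Apart from Nr4a1, their RefSeq lengths (GRCm38.p6) ran from 1522 bp for Ier2 (chromosome 8, 84661331 to 84662852) to 7423 bp for Fosb (chromosome 7, 19302696 to 19310118). The annotation of Nr4a1 (chromosome 15, 101253902 to 101274795) spans 20894 bp and begins upstream of the start used for its promoter above. Fos lies on chromosome 12 (85473890 to 85477274), Jun on chromosome 4 (95049036 to 95052222), Junb on chromosome 8 (84976909 to 84978748) and Dusp1 on chromosome 17 (26505591 to 26508472). Btg2 lies on chromosome 1 (134074865 to 134079155) and Egr1 on chromosome 18. The windows counted at the transcription start site (TSS) and the transcription end site (TES) have a width not given in the sources used here. In genes this short the regions may share reads.

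Read depth differed between libraries. The 3 regions together held 14511177 to 28190157 counts per library, and KO replicate 1 and WT replicates 1 and 2 were the shallowest. TSS counts ran from 1133364 to 3406223 per library. In the TSS table the single gene Gm10800 took 11.7%, 2.67% and 4.66% of counts in KO and 10.9%, 25.1% and 3.39% in WT, so that WT replicate 2 was the thinnest there. Values below are CPM, read counts divided by the library's total within a region's table and scaled by TMM, a method that sets the bulk of genes equal between libraries; levels of different regions are therefore not on a common scale. Cortical genes dominated the tissue check: Star averaged 501 ± 52.0 CPM over the gene body in KO and 595 ± 278 CPM in WT, and Cyp11a1 296 ± 26.8 and 319 ± 89.2 CPM (SD, n = 3 each). The medullary genes Chga and Dbh were also occupied, with Chga at 203 ± 131 CPM in KO and 113 ± 59.7 CPM in WT. Over gene bodies, the 7 medullary markers summed to 381 to 939.6 CPM in KO and 293 to 526 CPM in WT, and the 10 cortical markers to 4574 to 5695 and 2840 to 7071 CPM. None of the 8 lymphocyte markers had a row, nor did the macrophage genes Adgre1, Csf1r, Cd163 and Ptprc. The 6 measured macrophage markers summed to 107 to 129 CPM in KO and 115 to 148 CPM in WT, the 6 endothelial ones to 641 to 714 and 697 to 863, the 4 fibroblast ones to 144 to 161 and 171 to 381, and the 1 adipocyte gene, Fabp4, had 24.3 to 27.0 and 9.23 to 41.3. The other regions differed in part: the macrophage sum at the TES was 662 to 722 CPM in KO and 494 to 603.5 CPM in WT, and the medullary sum at the TSS 146 to 232 and 118 to 139.9 CPM. At the TES, 2 of the 4 fibroblast genes (Col3a1 and Pdgfra) passed as lower in KO, beside 12 of 12680 genes. Their edgeR log2 fold changes were -1.33 and -1.71, and 1 of the 4 genes lay above 0. The part of these cell types in the values below was not tested. In a whole gland, fewer cells of a type and less polymerase per cell cannot be told apart.

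Polymerase density over the bodies of these genes was among the highest in the gland. Body CPM was divided by RefSeq gene length, which may differ from the counted window. Junb had the highest density of 12381 genes, with 143 ± 15.1 CPM per kb in KO and 139 ± 47.0 CPM per kb in WT. Dusp1, a phosphatase that switches off MAP kinases, was next, with 99.0 ± 8.05 and 78.7 ± 10.3 CPM per kb. Egr1 ranked 21 (43.7 ± 3.25 and 43.9 ± 13.9 CPM per kb), Ier2 ranked 33 (44.5 ± 3.48 and 32.0 ± 4.28) and Jun ranked 35 (41.9 ± 3.46 and 34.5 ± 10.9). Btg2, Nr4a1, Fos and Fosb followed at ranks 61, 74, 115 and 403, and Fosb had 13.0 ± 3.53 and 9.16 ± 5.18 CPM per kb. Junb, Dusp1 and Egr1 did not overlap with their neighbours in that order except Egr1 with Ier2, in KO as in WT. From Egr1 down to Fosb, each gene overlapped with the next among WT mice, and among KO mice each did except Jun with Btg2 and Fos with Fosb. Nr4a1 had 29.8 ± 10.7 and 24.6 ± 11.8 CPM per kb over its full annotation. Measured from the start used for its promoter above, over 7950 bp, it had 78.3 ± 28.0 CPM per kb in KO and 64.7 ± 30.9 CPM per kb in WT.

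The genes differed in where along their length polymerase was found. The TSS held 27.6 ± 6.45% of the reads of Fos in KO and 26.7 ± 18.6% in WT, 25.5 ± 5.07% and 25.2 ± 8.36% of those of Ier2, and 21.5 ± 4.42% and 23.4 ± 12.4% of those of Btg2. The median over 12714 genes was 11.3%. Egr1 had 4.70 ± 1.02% and 2.67 ± 1.05% of its reads at the TSS, and Nr4a1 2.05 ± 0.65% and 1.59 ± 1.04%. Dusp1 was at the far end, with 0.301 ± 0.066% in KO and 0.427 ± 0.184% in WT. Its TSS window held 15, 19 and 25 reads in KO and 20, 17 and 19 reads in WT. Its body held 3936, 7176 and 5708 reads in KO and 4240, 2313 and 5578 in WT. The gene with the second densest body thus had a start with almost no reads in the counted window. The position of that window relative to the promoter printed above is not given in the sources used here.

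**Figure D1:**
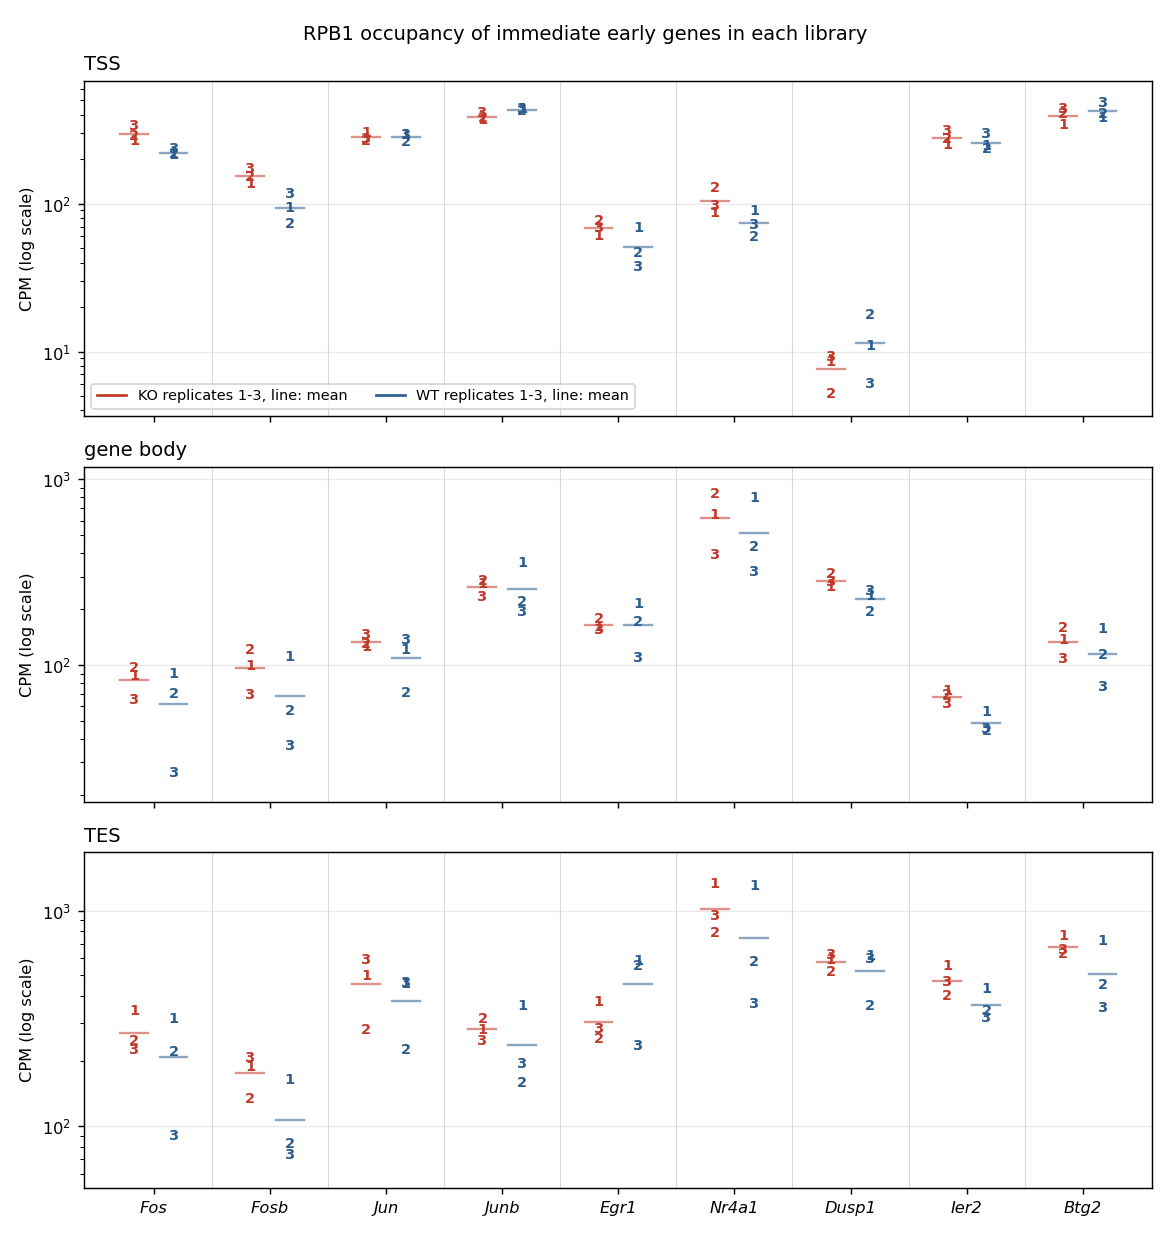
RPB1 CPM (log scale) at the TSS, gene body and TES of 9 immediate early genes; digits are replicate numbers, KO in red to the left of WT in blue, and lines are group means. Fos and Fosb show separate groups at the TSS (Fosb at 137 to 171 CPM in KO and 73.4 to 116 CPM in WT), while in the gene body WT replicate 3 is lowest for Fos at 26.2 CPM.

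At the TSS, 0 of the 9 genes passed the test (edgeR, adjusted p under 0.05), where 0.339% of 12682 genes did. DESeq2 passed 0 of the 9 and 0.795% of the 11944 genes to which it gave an adjusted p. With limma-voom, 0 of the 9 and 0.284% of all genes passed. Before adjustment, 3 of the 9 (Fos, Fosb and Nr4a1) had an edgeR p under 0.05, beside 5.57% of all genes, and 3 of the 9 a DESeq2 p under 0.05, beside 4.53%. KO and WT libraries were fully separate for 3 of the 9 (Fos, Fosb and Junb), beside 11.4% of all genes. The median log2 fold change (KO over WT) of the 9 genes was 0.10, and it was -0.0093 over all genes; 5 of the 9 were above 0, beside 48.4% of all genes, and 8 of the 9 when all regions were scaled together, where 81.7% of all genes were. Without 1 library the median of the 9 ran from 0.018 (without KO replicate 3) to 0.22 (without WT replicate 3).

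Fosb, a partner of Jun in the AP-1 dimer, had the largest difference at the start. Its TSS had 137, 151 and 171 CPM in the KO libraries and 93.1, 73.4 and 116 CPM in the WT libraries. The lowest KO library lay above the highest WT library. The log2 fold change was 0.68 ± 0.18 (SE; edgeR, adjusted p = 0.348). With depth class as a covariate Fosb passed (log2 fold change 0.57, edgeR adjusted p = 0.04), as did 158 of 12682 genes in all. Depth class is a cut by rank of total counts, which sets the 3 shallowest libraries apart. Fos, the best-known immediate early gene, had 264, 286 and 337 CPM at its TSS in KO and 215, 216 and 233 CPM in WT. Again the groups did not overlap, and the log2 fold change was 0.42 ± 0.16 (adjusted p = 0.727).

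Nr4a1, an orphan nuclear receptor that activates steroidogenic genes, had TSS levels of 86.7, 128 and 97.0 CPM in KO and 88.7, 59.98 and 72.3 CPM in WT. WT replicate 1 lay above the lowest KO library (log2 fold change 0.49 ± 0.20, adjusted p = 0.815). Egr1 had 60.8, 76.4 and 68.8 CPM at the TSS in KO and 68.6, 46.5 and 37.1 CPM in WT, with overlapping groups (log2 fold change 0.45 ± 0.24, adjusted p = 0.952).

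Jun and Junb had small differences at the start. Jun had 303, 264 and 276 CPM at its TSS in KO and 292, 261 and 289.6 CPM in WT. All 6 libraries lay close together, with an SD of 0.086 on the log2 scale, lower than in all but 1.3% of tested genes. Its log2 fold change was -0.0033 ± 0.15, and 0.24 with the scaling of all regions together, which moved the median of all genes to the same value. Junb had 365, 377 and 411 CPM at the TSS in KO and 434, 421 and 439.6 CPM in WT. All KO libraries lay below all WT libraries by a small margin (log2 fold change -0.17 ± 0.16, adjusted p = 0.952), and with the scaling of all regions together the log2 fold change of Junb was 0.087. Ier2, a nuclear protein of the early response, and Btg2, an antiproliferative partner of the CCR4-NOT deadenylase, had TSS log2 fold changes of 0.10 ± 0.17 for Ier2 and -0.10 ± 0.18 for Btg2 (0.14 for Btg2 with all regions scaled together). Dusp1 rested on at most 25 reads per library there (log2 fold change -0.53 ± 0.49).

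Over gene bodies, 0 of the 9 genes passed with edgeR, where 0.252% of 12714 genes did. DESeq2 passed 0 of the 9 and 1.41% of all genes, and limma-voom 0 of the 9 and 0.267%. Before adjustment, 1 of the 9 (Ier2) had an edgeR p under 0.05, beside 5.05% of all genes, and 2 of the 9 a DESeq2 p under 0.05, beside 5.81%. KO and WT libraries were fully separate for 2 of the 9 (Dusp1 and Ier2), beside 10.4% of all genes. The median log2 fold change of the 9 genes was 0.28, beside -0.019 over all genes, and 8 of the 9 were above 0, against 46.3% of all genes. Without WT replicate 3 that median was 0.05 and 6 of the 9 were above 0, and without WT replicate 1 it was 0.499 with 9 of the 9 above 0, so the size of that median depended on which WT library was left out.

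Ier2 had body levels of 72.4, 68.8 and 62.0 CPM in KO and 56.2, 44.5 and 45.4 CPM in WT. Every KO library exceeded every WT library, and the log2 fold change was 0.47 ± 0.15 (adjusted p = 0.576). Dusp1 had 264, 310.1 and 281 CPM over its body in KO and 234, 194 and 252 CPM in WT, also with no overlap (log2 fold change 0.33 ± 0.15, adjusted p = 0.934).

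The body levels of Fos, Fosb and Nr4a1 spread widely among the mice of each genotype. Fos had 87.2, 96.1 and 65.1 CPM in KO and 89.3, 70.0 and 26.2 CPM in WT. WT replicate 1 stood as high as the KO libraries, and WT replicate 3 was 3.67-fold below the highest library. The log2 fold change of the Fos body was 0.42 ± 0.39 (adjusted p = 0.934), and without 1 library it ran from 0.050 to 0.79. In Fosb, too, KO replicate 2 was highest and WT replicate 3 lowest, with 98.7, 121 and 69.2 CPM over the body in KO and 111, 56.4 and 36.8 CPM in WT (log2 fold change 0.50 ± 0.38, and 0.19 to 1.05 without 1 library). Nr4a1 had 641, 834 and 391 CPM in KO and 789.5, 434 and 318 CPM in WT (log2 fold change 0.28 ± 0.37, and 0.0097 to 0.73 without 1 library). The between-library SD of these 3 bodies was higher than in 98.6%, 98.1% and 96.0% of tested genes for Fos, Fosb and Nr4a1.

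The remaining bodies had overlapping groups. Jun averaged 134 ± 11.03 CPM in KO and 109.9 ± 34.6 CPM in WT, Junb 263 ± 27.7 and 256 ± 86.5 CPM, Egr1 164 ± 12.2 and 165 ± 52.1 CPM, and Btg2 134 ± 25.1 and 115 ± 39.6 CPM (SD, n = 3 each). Their log2 fold changes ran from -0.0051 for Egr1 to 0.28 for Jun, with standard errors of 0.23 to 0.26. WT replicate 3 had the lowest body level in 6 of the 9 genes and WT replicate 2 in the other 3.

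**Figure D2:**
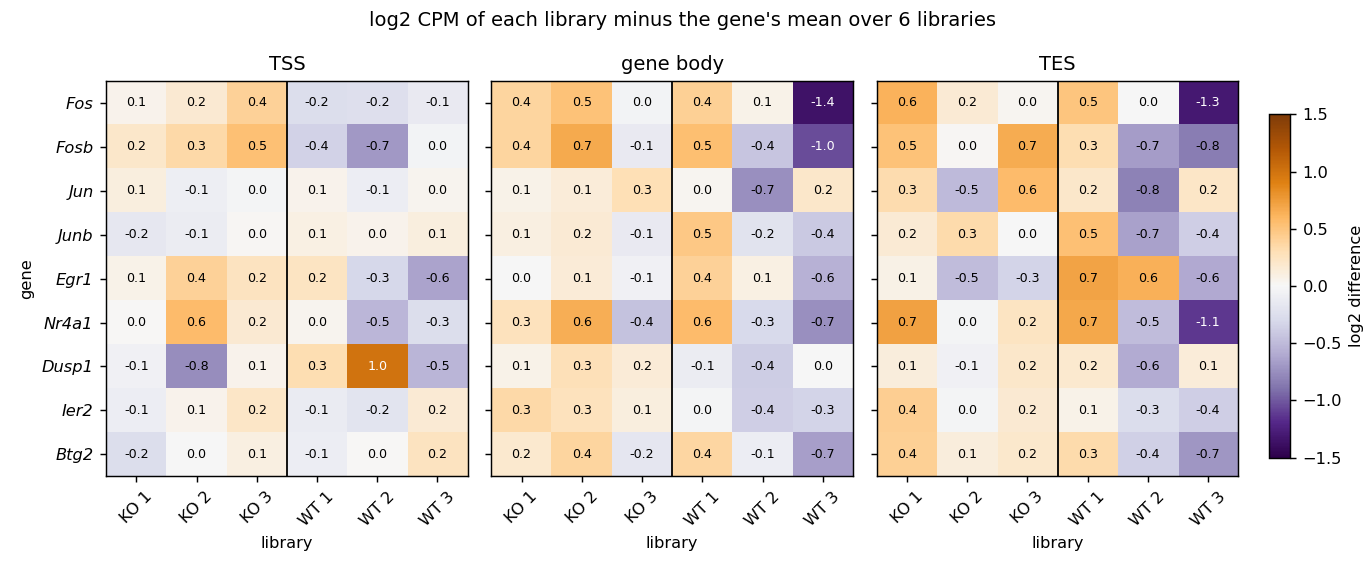
Log2 CPM of each library minus the gene's mean over the 6 libraries, for the TSS, gene body and TES; KO libraries are left of the black line and WT libraries right of it, and colour runs from purple (below the mean) to orange (above). WT replicate 3 is the lowest body library for 6 of the 9 genes, and at the TSS it is lowest for 1 of them.

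At the TES, 0 of the 9 genes passed with edgeR, where 0.915% of 12680 genes did. DESeq2 passed 0 of the 9 and 0.985% of the 10959 genes to which it gave an adjusted p. With limma-voom, 0 of the 9 and 0.923% of all genes passed. Before adjustment, 1 of the 9 (Fosb) had an edgeR p under 0.05, beside 6.85% of all genes, and 2 of the 9 a DESeq2 p under 0.05, beside 5.42%. KO and WT libraries overlapped for every one of the 9 genes, while they were fully separate for 11.5% of all genes. The median log2 fold change of the 9 was 0.38, beside -0.016 over all genes, and 8 of the 9 were above 0, beside 47.8% of all genes. The median was 0.21 without KO replicate 1 or WT replicate 3 and 0.66 without WT replicate 1, and 6 of the 9 were above 0 without WT replicate 2. Fosb had 188, 133 and 208 CPM at its TES in KO and 163, 82.4 and 73.5 CPM in WT. WT replicate 1 lay among the KO libraries (log2 fold change 0.72 ± 0.27, adjusted p = 0.373), and without it Fosb passed (log2 fold change 1.17, adjusted p = 0.0488).

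Egr1 was the 1 gene of the 9 with a negative log2 fold change at its end. Its TES had 375, 254 and 283 CPM in KO and 583, 553 and 235 CPM in WT. WT replicates 1 and 2 were high and WT replicate 3 was the lowest of all libraries (log2 fold change -0.59 ± 0.30, adjusted p = 0.739). Nr4a1 spread widely at its TES, with 1330, 788 and 948 CPM in KO and 1294, 577 and 369 CPM in WT (log2 fold change 0.45 ± 0.34). Log2 fold changes of the other 6 TES windows lay between 0.14 for Dusp1 and 0.42 for Btg2.

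**Figure D3:**
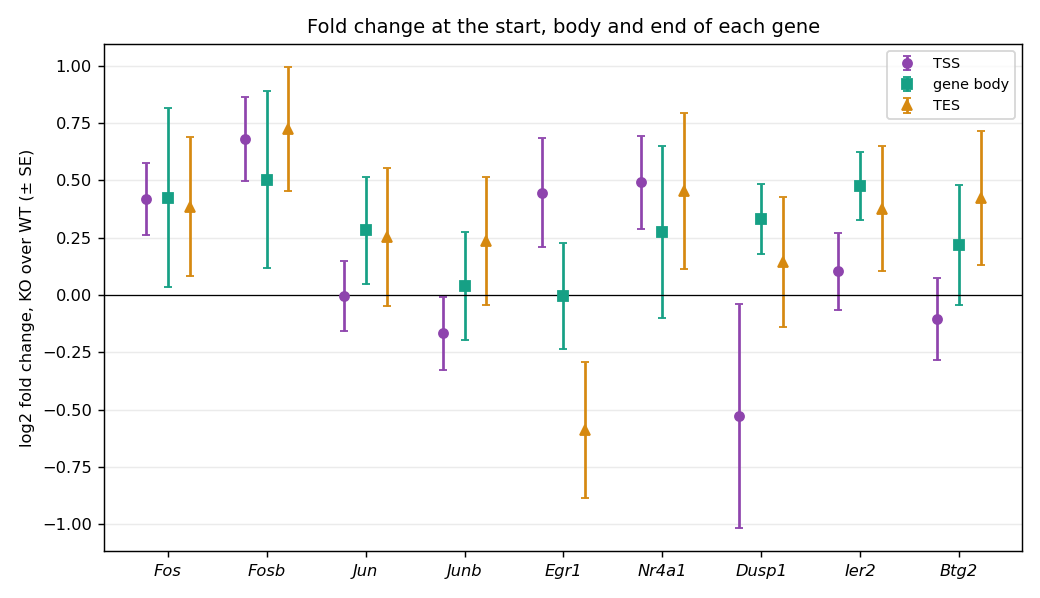
Log2 fold change of KO over WT with its standard error (edgeR) at the TSS (circles), gene body (squares) and TES (triangles) of the 9 genes. Fosb lies at 0.68, 0.50 and 0.72 in the 3 regions, Fos at 0.42, 0.42 and 0.39, and Egr1 at 0.45, -0.0051 and -0.59.

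Whether promoter and body moved together was tested as the ratio of TSS to body counts within each library. With edgeR 0 of the 9 ratios passed, as did 0% of 12679 genes, and limma on the log2 ratio also passed 0 of the 9. Before adjustment, 1 of the 9 (Egr1) had an edgeR p under 0.05, beside 3.64% of all genes, and 0 of the 9 a limma p under 0.05. The log2 change was above 0 for 3 of the 9, beside 47.8% of all genes, and for 8 of the 9 when the TSS was scaled by the gene body factors, where 85.1% of all genes were above 0. For Fos the log2 change of the ratio was -0.16 ± 0.48, for Fosb 0.089 ± 0.48, for Nr4a1 0.17 ± 0.34 and for Jun -0.33 ± 0.25. The TSS and body contrasts share their libraries, so their fold changes are given side by side above and not correlated. The wide errors of Fos and Fosb do not show that start and body moved alike. The ratio of Egr1 was higher in KO (log2 change 0.42 ± 0.18), with log2 ratios of -1.40, -1.22 and -1.16 in KO and -1.63, -1.88 and -1.56 in WT. Its groups did not overlap, and the adjusted p was 0.955.

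The ratio of start to body of Fos and Fosb varied from mouse to mouse. The log2 TSS to body ratio of Fos was 1.60, 1.57 and 2.37 in KO and 1.27, 1.63 and 3.15 in WT. In reads, its TSS had 469, 1045 and 920 against 1299, 2224 and 1321 over the body in KO. In WT they were 394, 209 and 727 reads at the TSS against 1615, 834 and 579 over the body. WT replicate 3 alone had more reads of Fos at the start than in the body, and KO replicate 3, highest of all at the Fos TSS, was the lowest of the KO bodies. The SD of the log2 ratio over the 6 libraries was 0.701 for Fos and 0.702 for Fosb, higher than in 91.3% and 91.4% of 11700 genes. For Jun it was 0.343, near the median of 0.333. Of the 9 genes, 1 had the same library highest at TSS and body, beside 25.8% of 11700 genes, and 3 the same library lowest, beside 24.4%. Read depth differed between the 6 libraries, so no correlation of start with body over them is given.

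**Figure D4:**
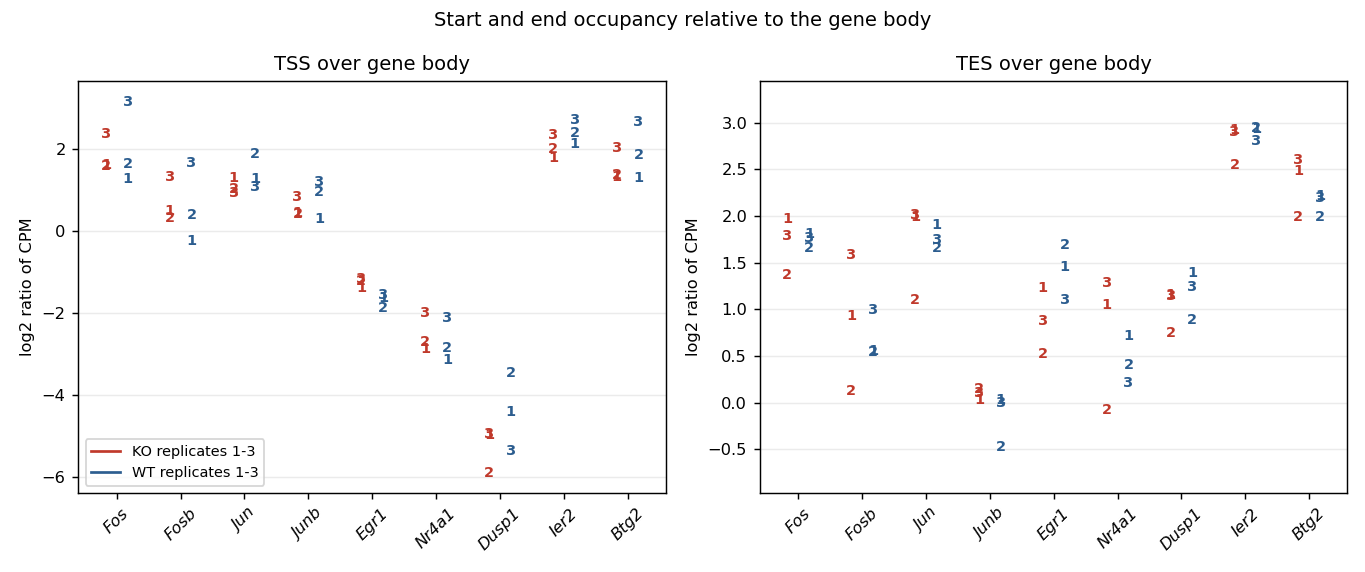
Log2 ratio of TSS CPM to gene body CPM (left) and of TES CPM to gene body CPM (right) for each gene; digits are replicate numbers, KO in red to the left of WT in blue. The TSS ratio of Fos spans 1.27 to 3.15 over the libraries, while its TES ratio spans 1.37 to 1.96.

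The ratio of end to body was narrow for Fos and Ier2 and wide for Fosb and Nr4a1. In Fos the log2 ratio of TES to body was 1.96, 1.37 and 1.79 in KO and 1.81, 1.66 and 1.77 in WT, with an SD of 0.202, below the median of 0.298 over 12371 genes. The SD was 0.154 for Ier2, against 0.500 for Fosb, 0.516 for Nr4a1 and 0.416 for Egr1, these last 3 higher than in 88.1%, 89.6% and 77.8% of genes. The same library was lowest at TES and body in 7 of the 9 genes, beside 37.1% of all genes, and highest in 4 of the 9, beside 40%. With edgeR 0 of the 9 TES to body ratios passed, where 0.0158% of 12677 genes did, and limma on the log2 ratio passed 0 of the 9. Before adjustment, 1 of the 9 (Egr1) had an edgeR p under 0.05, beside 5.7% of all genes, and 0 of the 9 a limma p under 0.05. The log2 change was above 0 for 4 of the 9, beside 48% of all genes. Egr1 had a log2 change of -0.54 ± 0.23 (adjusted p = 0.839), with log2 ratios of 1.23, 0.517 and 0.875 in KO and 1.46, 1.69 and 1.11 in WT. The groups overlapped, since KO replicate 1 lay above WT replicate 3. Log2 changes of the other 8 ran from -0.16 for Dusp1 to 0.31 for Nr4a1.

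Genes with the nearest patterns were sought over the 6 libraries, by Pearson's correlation with the mean profile of the 9 genes. In the gene body that profile stood at 0.20, 0.36 and -0.047 in KO and 0.30, -0.26 and -0.54 in WT (log2 CPM relative to the mean). The nearest of 6177 genes were Trim25 (r = 0.996), Klhdc8a (0.991), Gadd45b (0.9865), Nr4a3 (0.9845) and Slc25a24 (0.984). Gadd45b, a stress-induced growth arrest gene, and Nr4a3, the paralogue of Nr4a1, are themselves early response genes. At the TSS the profile stood at -0.015, 0.070 and 0.19 in KO and -0.014, -0.12 and -0.11 in WT. Its nearest genes of 6140 were Hipk2 (r = 0.985), Mastl (0.970), Slc29a2 (0.956), Cenpa (0.954) and Klf2 (0.9535). With only 6 libraries, which differed in read depth, 69 body and 38 TSS genes exceeded 0.9.

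A wider list of 50 other immediate early and fast response genes had 46 rows. At the TSS 0 of the 46 passed with edgeR, DESeq2 or limma-voom. Before adjustment, 5 of the 46 had an edgeR p under 0.05 there, beside 5.57% of all genes. Over the body 1 passed with edgeR and was higher in KO, beside 0.244% of all genes. Limma-voom passed the same gene, beside 0.267% of all genes. The 3 that DESeq2 passed, beside 1.41% of all genes, were Arc, Ier5 and Plk2 (Ier5 and Plk2 are named after their values were seen). At the TES 1 passed with edgeR, DESeq2 and limma-voom alike, beside 0.82% of all genes called higher by edgeR. The gene that edgeR passed was Arc in both regions, a cytoskeletal protein best known as an early gene of active neurons. Its body had 33.0, 33.7 and 27.1 CPM in KO and 14.0, 11.7 and 12.1 CPM in WT, and its TES 78.2, 73.6 and 73.3 CPM in KO and 39.6, 24.5 and 25.4 CPM in WT. Both regions had separate groups, and Arc rose by 1.31 ± 0.17 (adjusted p = 0.0368) over the body and by 1.32 ± 0.23 (adjusted p = 0.00058) at the TES on the log2 scale. At the TSS, Arc had 207, 284 and 345 CPM in KO and 110.0, 102 and 232 CPM in WT, where WT replicate 3 overlapped the KO libraries (log2 fold change 0.89 ± 0.30, adjusted p = 0.58). The body call ended without KO replicates 1, 2 or 3 and without WT replicates 1 or 3 (adjusted p = 0.139, 0.209, 0.257, 0.168 and 0.0663). It also ended with the mouse number series as a covariate (0.09997), with the scaling of all regions together (0.124), within the mouse numbers without a C prefix (0.649) and with the replicate block (0.215). In each of these settings the log2 fold change of the Arc body stayed between 1.20 and 1.39. The TES call remained in each of these. The TSS passed without WT replicate 3 (log2 fold change 1.39, adjusted p = 0.0146), with depth class (0.0104) and with the replicate block (0.0143). With depth class edgeR also passed Cebpd at the TSS (log2 fold change -0.56 without a covariate) and Plk2 over the body. In that run edgeR called 158 TSS and 95 body genes in all. At the TES it passed Nr4a2 with the replicate block and with depth class. Dusp5 passed there with depth class and without WT replicate 2. Cebpd, Nr4a2 and Dusp5 are named after their values were seen.

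Over the body, 40 of the 46 genes of the wider list had a log2 fold change above 0, beside 46.3% of all genes, with a median of 0.29 beside -0.019 over all genes. Without WT replicate 2 the count was 37 and the median 0.16, and without WT replicate 3 they were 40 and 0.31. At the TSS 28 of the 46 were above 0, beside 48.4% of all genes, with a median of 0.057. At the TES 30 of the 46 were above 0, beside 47.8%, with a median of 0.11, and without WT replicate 2 these were 23 and 0.010. Of 22 measured upstream regulators, among them Srf, Elk1, Creb1 and the MAP kinases, 0 were called in each region by edgeR. Before adjustment, 1 at the TSS, 1 over the body and 0 at the TES had an edgeR p under 0.05. Over all genes these shares were 5.57%, 5.05% and 6.85%. The median log2 fold changes of the 22 regulators were -0.17, 0.0029 and 0.017.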

How the data were processed

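RPB1 ChIP-seq was read from the authors' deposited raw counts per gene at the TSS, gene body and TES (whole numbers, 1 column per library, no pooling). A joint table held the same counts (0 differing cells), and the deposited log2 CPM table was not used. The submitters' processing notes name, with no role, the builds GRCm38 and mm10 and the tools BWA, HOMER, MACS2, Picard, Trimmomatic, limma, edgeR and bcl2fastq 2.20. Which tool counted reads, in which windows and after which filters is not given in the sources used here. Each table was tested with edgeR 4.0.16 (R 4.3.3) by the quasi-likelihood test, with TMM scaling, filterByExpr (minimum count 10, minimum total 15) and Benjamini-Hochberg adjustment over all genes tested; a gene passed at an adjusted p under 0.05. Of the 10 listed genes, 9 were measured and 9 passed the filter. Ratios were tested as a region by genotype interaction with the library as block. Standard errors are the log2 fold change over the square root of F. Other settings used DESeq2 1.42.0 and limma 3.58.1. Fits were tested on simulated data. Members and lists were chosen with earlier results of these data known. The text names the 9 genes, called genes of the wider lists, the 5 nearest patterns per region and the tissue genes. Spread rankings took genes with at least 10 reads per region and library, and TSS shares genes with at least 20 reads. P-values set the difference of KO and WT against the spread between these mice.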

Additional observations from a re-analysis of the deposited data

How the results depend on the processing

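Of the 9 genes, 0 passed at the TSS, over the body, at the TES or in either ratio under each alternative run, with 2 exceptions: 1 gene (Fosb) passed at the TSS with depth class as a covariate, and 1 (Fosb) at the TES without WT replicate 1, so that leaving out 1 library gave 0 to 1. Whether replicate numbers pair the mice was not settled. After each group's mean was subtracted, same-numbered libraries correlated at 0.441, -0.213 and 0.358 at the TSS. In groups this small such deviations depend on each other, so these values cannot decide on pairing. With the replicate block the smallest edgeR adjusted p of the 9 genes was 0.0522 at the TSS. In that run 100 TSS, 0 body and 194 TES genes and 0 TES ratios were called in all. Scaling all regions together moved the median of all genes to 0.24 at the TSS, -0.12 over the body and -0.12 at the TES, and gene body scaling moved the TSS ratio median to 0.35. Counts over all genes were 43, 32, 116, 0 and 2 for TSS, body, TES, TSS ratio and TES ratio. They moved to 107, 0 and 61 with joint scaling, 95 and 179 (TSS and body) with DESeq2, 75, 0 and 0 (TSS, body and TES ratio) with the mouse number series, 158, 95, 184, 27 and 9 with depth class, and 66, 0, 62 and 0 (TSS, body, TES and TES ratio) within mouse numbers without a C prefix. With RLE scaling, limma and gene body scaling 0 TES ratios were called. Leaving out 1 library gave 5 to 84 at the TSS, 0 to 37 over the body, 73 to 148 at the TES and 0 to 15 TES ratios.

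Directions turned as follows on the log2 scale. At the TSS, Jun had 0.099 and Btg2 0.0029 with table totals; with joint scaling Jun had 0.24, Junb 0.087 and Btg2 0.14; with depth class Jun had 0.0069. Without 1 library Jun ran from -0.061 to 0.040 and Btg2 from -0.19 to 0.0064. Over the body, Egr1 had 0.046 with table totals, 0.042 with limma-voom, 0.045 with the replicate block, 0.024 with the mouse number series, 0.17 with depth class and 0.24 within mouse numbers without a C prefix, and Junb had -0.077 with joint scaling. Without 1 library Junb ran from -0.14 to 0.35, Egr1 from -0.23 to 0.22, Btg2 from -0.012 to 0.50 and, at the TES, Jun from -0.018 to 0.51 and Dusp1 from -0.070 to 0.27. In the TSS ratio, gene body scaling gave Fos 0.24, Jun 0.040, Junb 0.13, Ier2 0.0043, Btg2 0.023 and Arc 0.046; depth class gave Fosb -0.24 and Nr4a1 -0.055; within mouse numbers without a C prefix Fosb had -0.25. Without 1 library Fos ran from -0.57 to 0.41, Fosb from -0.38 to 0.67, Nr4a1 from -0.075 to 0.49, Btg2 from -0.70 to 0.0079 and Arc from -0.62 to 0.097. In the TES ratio, depth class gave Fos 0.023 and Jun 0.0036, and without 1 library Fos ran from -0.18 to 0.12, Fosb from -0.17 to 0.56, Jun from -0.22 to 0.22, Ier2 from -0.17 to 0.014 and Arc from -0.056 to 0.20. The cause was not tested. Across the alternatives 740 log2 fold changes of single genes kept their direction and side of the threshold. Another 54 turned direction, 5 gained a call and 9 lost it. Of the counts of called genes, 121 stayed within 1.5 times their value and 41 moved. Most of the 121 were counts of the 9 genes that were 0 in both runs, so they say little about stability. The TSS of Dusp1, at 15 to 25 reads per library, limits what could be detected there.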

Other observations

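Inducible heat shock genes, which encode chaperones and are switched on by stress, were listed as a separate group of 8, all of them measured. At the TES 2 of the 8 were called higher in KO by edgeR, beside 0.82% of all genes. Hspa1a, the inducible HSP70 chaperone, had 143, 119.7 and 182 CPM at its TES in KO and 55.6, 35.3 and 12.7 CPM in WT (log2 fold change 2.13 ± 0.30, adjusted p = 1.11e-05). Its near-identical neighbour Hspa1b had 107, 86.8 and 114 CPM in KO and 56.2, 50.0 and 23.6 CPM in WT (log2 fold change 1.28 ± 0.25, adjusted p = 0.00286), and reads may be split between the pair. Both had separate groups, and 2 of the 8 genes were called at the TES under each alternative run. Over the body 0 of the 8 were called by edgeR, DESeq2 or limma-voom, with 5 at an unadjusted edgeR p under 0.05, beside 5.05% of all genes. With depth class as a covariate 2 of the 8 were called, beside 95 of 12714 genes. WT replicate 3, the lowest library for the Fos body, was also the lowest for the bodies of Hspa1a (3.53 CPM), Hspa1b (5.83 CPM) and Hsph1 (27.1 CPM). For the rest of the 8 genes WT replicate 2 was the lowest. It had 73.3 CPM for Hspa8, 24.25 for Dnajb1, 64.4 for Hsp90aa1, 6.88 for Hspb1 and 152 for Bag3.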
